A study of Rattus norvegicus with 18 samples.

Results

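The genes described here are the homeobox and spinal patterning factors of rat: the Hox genes of all 4 clusters and the Pax, Lhx, Irx, Dlx, Msx, Isl, Pitx, Otx, Meis and Pbx families and the sine oculis homologs Six3 to Six6. They were chosen by gene symbol alone, and where a gene had several probe sets the brightest one over all arrays stood for it. The rule found 59 genes, 22 of them Hox genes, of the 14217 genes named on the array; 73 probe sets carry their symbols. The rule itself used no measured difference between groups, but genes and lists were chosen with earlier results of these data known. The arrays hold RNA of rat spinal cord material: 6 arrays are labelled control, 6 have an addition of a bone morphogenetic protein (BMP) and 6 an addition of ciliary neurotrophic factor (CNTF). Both factors were used at 10 ng/mL, and the label of each treated array carries "4d", read here as 4 days. The control label gives no time and the BMP family member is not named. The description of each control array carries the entry "14 NT", and the descriptions of the treated arrays do not. That entry is not explained and was not interpreted here. The labels name no strain, age, cell type or culture in words. Each array title carries a number from 1 to 6, present once in every group. Nothing states that arrays of a group are separate cultures or animals; the tests use the scatter among them, part of which may be technical.

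Hox proteins are transcription factors that give cells their position along the head-to-tail axis. Their genes lie in clusters, and their order along the chromosome follows the order in which they are used along the body: low-numbered (anterior) paralogs reach up to the hindbrain, central paralogs mark the neck and trunk cord, and high-numbered (posterior) paralogs mark the thoracic and lumbar cord and the tail. Meis and Pbx proteins, homeodomain proteins of the TALE class, bind DNA together with Hox proteins. Across the other axis of the cord, BMPs from the roof plate pattern the dorsal side, where Msx genes are BMP targets, while Sonic hedgehog patterns the ventral side. Pax6 and the Irx genes act in intermediate and ventral progenitors, and Lhx, Isl and Pax2 mark classes of postmitotic neurons. CNTF signals through gp130 and STAT3 and is known in neural tissue for driving astrocyte genes.

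RefSeq promoter windows (rat build GRCr8) were matched by symbol for 39 of the 59 genes. The windows shown belong to 4 genes that were higher with BMP against control or against CNTF and that had a single window. Each is the 250 bases before the annotated start, read 5' to 3' on the gene's strand, with capitals for a motif match. Hoxd3 is at chr3:80045876-80046125 on the + strand and Hoxd8 at chr3:80014973-80015222 on the + strand, so that both lie in the same cluster. Meis1 is at chr14:97495084-97495333 on the - strand, and Hoxc4 at chr7:136048809-136049058 on the + strand.
Hoxd3: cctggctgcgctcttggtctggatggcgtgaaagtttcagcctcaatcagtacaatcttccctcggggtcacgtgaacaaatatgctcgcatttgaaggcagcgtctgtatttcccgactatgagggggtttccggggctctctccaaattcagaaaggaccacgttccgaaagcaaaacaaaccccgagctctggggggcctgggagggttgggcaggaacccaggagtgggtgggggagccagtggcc
Hoxd8: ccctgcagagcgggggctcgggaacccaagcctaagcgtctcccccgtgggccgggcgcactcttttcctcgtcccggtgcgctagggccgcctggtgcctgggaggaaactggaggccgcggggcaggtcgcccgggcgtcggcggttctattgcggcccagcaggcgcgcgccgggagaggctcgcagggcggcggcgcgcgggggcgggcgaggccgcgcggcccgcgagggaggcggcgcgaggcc
Meis1: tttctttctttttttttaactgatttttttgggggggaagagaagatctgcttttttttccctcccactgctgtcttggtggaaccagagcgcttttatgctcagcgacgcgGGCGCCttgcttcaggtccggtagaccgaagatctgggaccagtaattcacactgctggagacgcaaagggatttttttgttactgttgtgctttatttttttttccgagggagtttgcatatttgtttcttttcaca
Hoxc4: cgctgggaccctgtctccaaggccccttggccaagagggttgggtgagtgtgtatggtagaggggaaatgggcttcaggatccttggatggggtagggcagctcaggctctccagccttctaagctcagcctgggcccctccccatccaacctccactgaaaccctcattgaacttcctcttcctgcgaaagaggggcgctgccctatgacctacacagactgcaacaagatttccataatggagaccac

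The 3 motifs searched on both strands were TGATTNAT, a core bound by PBX-HOX dimers, TGACAG, the MEIS core, and GGCGCC, a GC-rich element bound by SMAD proteins. The PBX-HOX letters were in 1 of the 41 windows of these genes, that of Hoxd11, and in 2.82% of all 33469 windows. The MEIS letters were in 5 of 41, against 15.8% of all windows. The GGCGCC letters were in 12 of 41, against 8.69% of all windows, and these promoters had a median GC content of 62.8% against 51.2%. Among the 4 windows shown, Meis1 alone held a match, GGCGCC beginning 138 bases before the start, while Hoxd3, Hoxd8 and Hoxc4 held none of the 3 motifs. A match is a description of the letters and no evidence of binding.

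Levels are given as log2(intensity + 117) of the deposited, scaled intensities. Because of the added constant a difference on this scale understates the change of a dim probe set. The position of a gene is its percentile among all probe sets; intensities of different probe sets do not rank the RNA amounts of their genes. The median probe set stood at 9.75 and the 20th percentile at 7.81. Of the 59 genes, 25 were at or above the median and 16 below the 20th percentile. The Hox genes made up 15 of those 25, and only 3 Hox genes, Hoxd1, Hoxa11 and Hoxb13, were below the 20th percentile. The gene with the brightest probe set in each cluster, named by rule, was Hoxa5 (95.1st percentile), Hoxb6 (92.6th percentile), Hoxc9 and Hoxd8 (both at the 72.0th percentile). Hoxa9 stood at the 91.1st percentile, Hoxd9, Hoxd10 and Hoxd11 below the median, and Hoxb13, a gene of the tail end, at the 1.03rd percentile.

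Among the cofactors, Meis1 was at the 98.6th percentile and Pbx3 at the 98.3rd. Pax6 was at the 90.9th and Irx1 at the 86.5th percentile. All 9 LIM and Pax genes of postmitotic spinal neurons, both measured Msx genes and all 3 Dlx genes were below the table median. So were all 7 genes of a list called the head group here, which are Otx1, Otx2, Six3, Six6, Pitx1, Pitx3 and Pax4. That name is a label of the list, and Pax4 and Pitx1 are not forebrain markers. Otx2, a determinant of forebrain and midbrain, was at the 8.39th percentile and Six3, a forebrain gene, at the 9.36th. Msx3, Pax3, Pax7 and Dbx2 have no value because no probe set was named for them alone. Intensities had median values of 667 to 817 per array, and arrays of the same group correlated between 0.954 and 0.982.

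**Figure D1:**
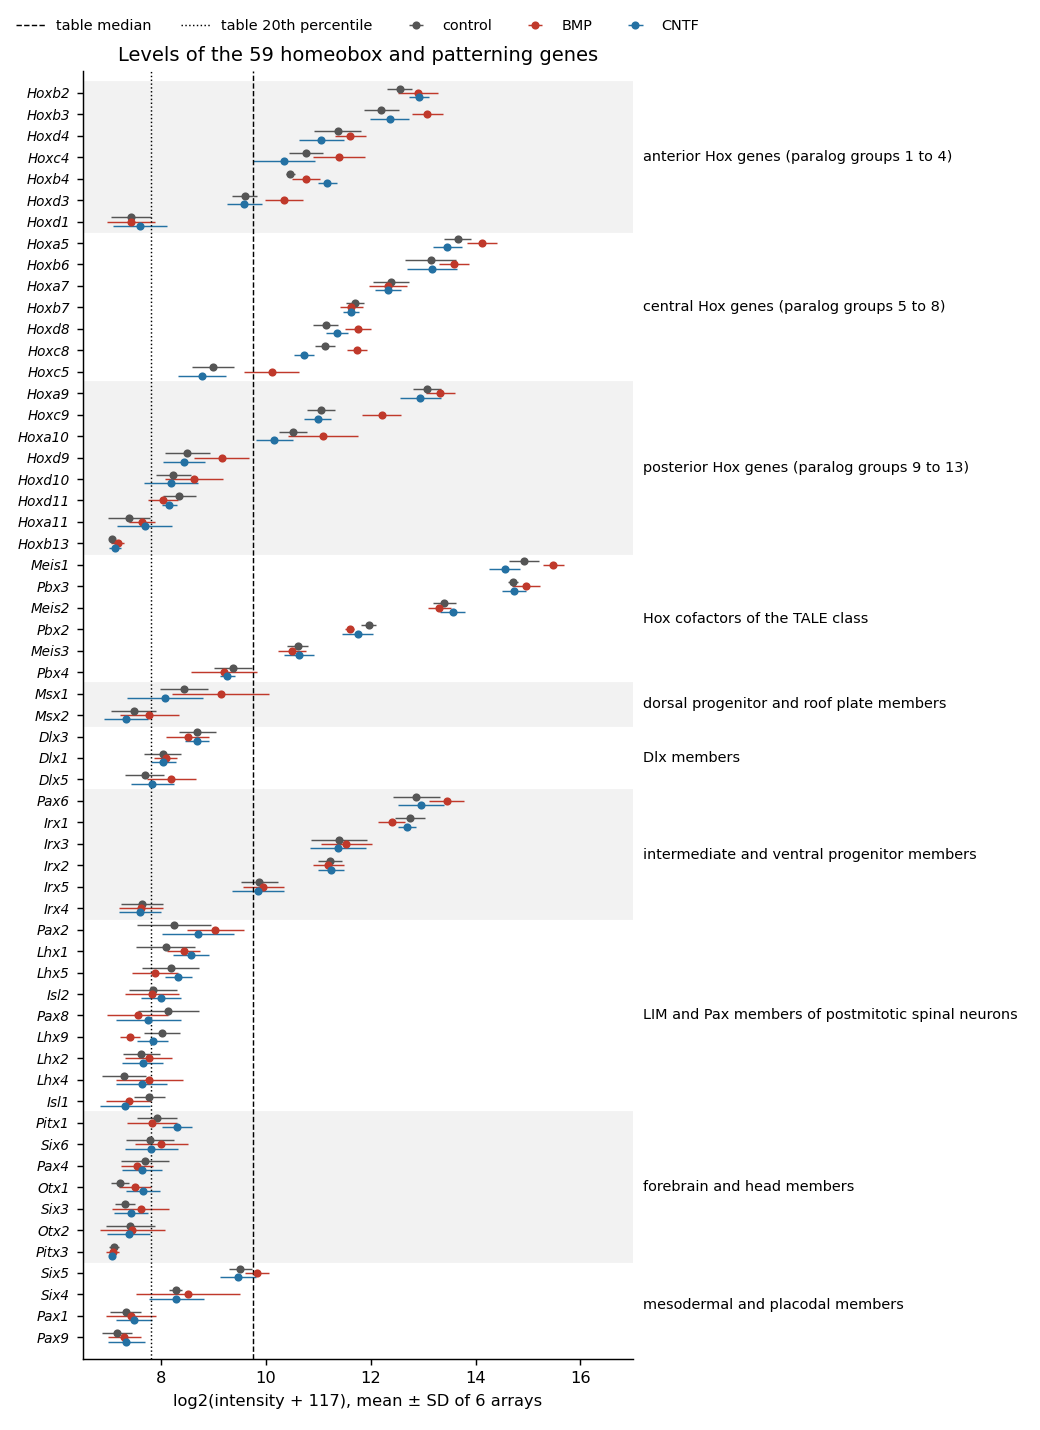
Mean and SD over 6 arrays of each group for the 59 genes, on the log2(intensity + 117) scale, grouped by role. The dashed line is the table median (9.75) and the dotted line the 20th percentile (7.81); 15 of 22 Hox genes lie at or above the median, while all genes of the dorsal, Dlx, postmitotic neuron and head groups lie below it.

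With BMP, 6 of the 22 Hox genes rose against control and none fell. They were Hoxb3, Hoxc5, Hoxc8, Hoxc9, Hoxd3 and Hoxd8, with differences of 0.61 to 1.16 on the log2 scale. Over all 59 genes, 7 rose, the 7th being Meis1, and 1 fell, Lhx9, at an adjusted p under 0.05 in limma. Over all 31042 probe sets tested, 3.44% rose and 2.57% fell and at or above the table median 4.32% rose. Of the 22 Hox genes, 18 had a difference above 0, with a median of 0.42, against 51.9% of all probe sets and a median of 0.01. The 37 other genes had a median of 0.07. Every BMP array was above every control array in 6 of the 22 Hox genes and in 1.64% of all probe sets. The BMP array was above its same-numbered control in every pair for 9 of the 22 Hox genes and for 9.51% of all probe sets. In bulk RNA fewer cells of a type and less RNA per cell cannot be told apart.

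The labels do not state that the title numbers pair the arrays. All 18 same-number pairs had deviations that correlated above 0.1, and pairs of different numbers were not set beside them. The calls given without the block do not use the number. With the number as a block, 12 Hox genes rose and none fell, and over the 59 genes 16 rose and 2 fell, against 9.1% and 7.58% of all probe sets in that fit. The genes added by the block were Hoxa5, Hoxa10, Hoxb2, Hoxb6, Hoxc4, Hoxd9, Pax2, Pax6 and Pbx3, which rose, and Pbx2, which fell. The residual SD of the 15 brighter Hox genes had a median of 0.32 without the block and 0.18 with it.

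**Figure D2:**
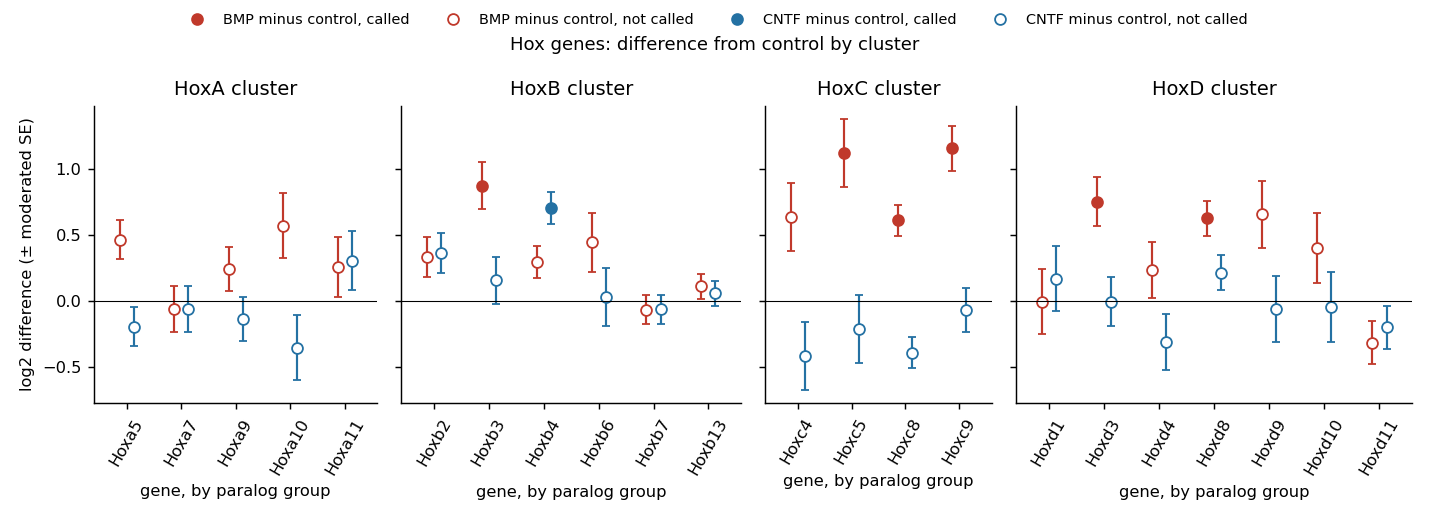
Difference from control on the log2 scale, with moderated SE, for each measured Hox gene by cluster and paralog group; filled points passed the adjusted p of 0.05. BMP points (red) lie above 0 for all 4 HoxC genes and for 18 of the 22 Hox genes; CNTF points (blue) lie below 0 for all 4 HoxC genes and above 0 for 5 of 6 HoxB genes.

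The HoxC cluster had 3 of its 4 measured genes called higher with BMP, against 3.44% of all probe sets. The cluster holds 9 genes, and those not measured have no value here. Hoxc9, a posterior paralog that marks thoracic cord, read 10.63 to 11.35 in the controls (median 11.06), 11.52 to 12.55 with BMP (median 12.33) and 10.50 to 11.24 with CNTF (median 11.05). Every BMP array was thus above every control and every CNTF array, and the gap to the same-numbered control was 0.89 to 1.60. The difference from control was 1.16 ± 0.17 (moderated SE, n = 6 arrays a group), or 2.23-fold, with a limma adjusted p of 0.000657.

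Hoxc8, a central paralog used in brachial and thoracic cord, read 10.86 to 11.38 in the controls (median 11.10) and 11.50 to 11.94 with BMP (median 11.78). The groups did not overlap, and it rose by 0.61 ± 0.12 (1.53-fold, limma adjusted p = 0.00379). Hoxc5, another central paralog, read 8.52 to 9.62 in the controls (median 8.93) and 9.62 to 11.12 with BMP (median 9.98). Its highest control array, at 9.618, and its lowest BMP array, at 9.619, all but met. It rose by 1.12 ± 0.26 (2.18-fold, limma adjusted p = 0.0118) at a level below the table median in the controls. BMP array 1 stood apart from the other 5 at 11.12, the next being at 10.13.

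Hoxc4, the anterior end of that cluster, read 10.19 to 11.11 in the controls (median 10.84) and 10.60 to 11.89 with BMP (median 11.42), and the groups overlapped. Its difference of 0.64 ± 0.26 did not pass the test (limma adjusted p = 0.167) without the block and did with it (adjusted p = 0.0244). Its second probe set gave a smaller difference, 0.18.

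In HoxB, Hoxb3, an anterior paralog of hindbrain and neck, read 11.79 to 12.63 in the controls (median 12.24) and 12.74 to 13.59 with BMP (median 13.03). The groups did not overlap and every same-numbered pair gained 0.65 to 0.99. It rose by 0.87 ± 0.18 (1.83-fold, limma adjusted p = 0.00588). The neighbouring anterior gene Hoxb2 had a difference of 0.34 (adjusted p = 0.234, with the block 0.0136), with BMP array 5 well below the other 5 at 12.16. Hoxb6, a central paralog and the brightest of the cluster, had a difference of 0.44 (adjusted p = 0.301, with the block 0.0189), while Hoxb7, a neighbour of it, had one of -0.06 ± 0.11.

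In HoxD, Hoxd8, a central paralog, read 10.79 to 11.44 in the controls (median 11.11) and 11.48 to 12.13 with BMP (median 11.77), with no overlap. It rose by 0.63 ± 0.13 (1.54-fold, limma adjusted p = 0.00752). Hoxd3, an anterior paralog close to the table median, read 9.25 to 9.86 in the controls (median 9.63) and 9.89 to 10.91 with BMP (median 10.28), again with no overlap. It rose by 0.75 ± 0.19 (1.68-fold, limma adjusted p = 0.0188). Its dimmer second probe set had a similar difference, 0.67, with an adjusted p of 0.243. Without the 3 arrays of title number 2 neither gene passed (adjusted p = 0.0521 for Hoxd8 and 0.0763 for Hoxd3), without number 1 Hoxd8 did not (0.0509), and without number 3 or 5 Hoxd3 did not (0.0632 and 0.0572).

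In HoxA no gene passed the test without the block. Hoxa5, a central paralog of neck and upper trunk, read 13.22 to 13.87 in the controls (median 13.74) and 13.72 to 14.48 with BMP (median 14.12), and was higher in 6 of 6 same-numbered pairs, by 0.27 to 0.61. Its difference was 0.47 ± 0.15 (limma adjusted p = 0.069, with the block 0.000283). Without BMP array 6 it passed (adjusted p = 0.0293). Hoxa7, the next measured gene along that cluster, had a difference of -0.06 ± 0.17, and Hoxa9 one of 0.24 ± 0.17. Hoxa10 had the largest difference of the cluster, 0.57, with controls at 10.17 to 10.90. Its BMP arrays 1, 2 and 4 read 11.785, 11.8 and 11.395, above all controls. BMP arrays 3, 5 and 6 read 10.786, 10.241 and 10.494, within the control range. Hoxa7, Hoxa9, Hoxa10 and Hoxb7 were picked here after their values were seen, to show genes of these clusters that did not pass.

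By position on the axis, 2 of 7 anterior, 3 of 7 central and 1 of 8 posterior Hox genes rose, against 3.44% of all probe sets. At or above the table median were 6 of the anterior, 6 of the central and only 3 of the posterior genes. The counts thus compare classes that differ in signal. With the block the counts that rose were 4, 5 and 3, against 9.1% of all probe sets. The median differences were 0.34, 0.47 and 0.33. The difference between these classes was not tested.

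Of the 6 TALE cofactors, Meis1 rose. It read 14.52 to 15.28 in the controls (median 14.87), 15.25 to 15.77 with BMP (median 15.44) and 14.26 to 14.95 with CNTF (median 14.43). BMP and control arrays overlapped narrowly, although the BMP array was higher in 6 of 6 same-numbered pairs by 0.45 to 0.81. It rose by 0.56 ± 0.14 (1.48-fold, limma adjusted p = 0.0197, and 2.34e-05 with the block). Without BMP array 1 the adjusted p was 0.0527, and without the arrays of number 2, 3, 5 or 6 it was 0.0686, 0.0691, 0.0599 and 0.055.

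Pbx2, a further Hox partner, read 11.78 to 12.14 in the controls (median 11.93) and 11.48 to 11.72 with BMP (median 11.59). Its groups did not overlap, and its difference of -0.36 ± 0.12 had an adjusted p of 0.0722, or 0.0208 with the block. The groups did not overlap, in either direction, in 2.83% of all probe sets. Meis2 had a difference of -0.09 ± 0.13.

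**Figure D3:**
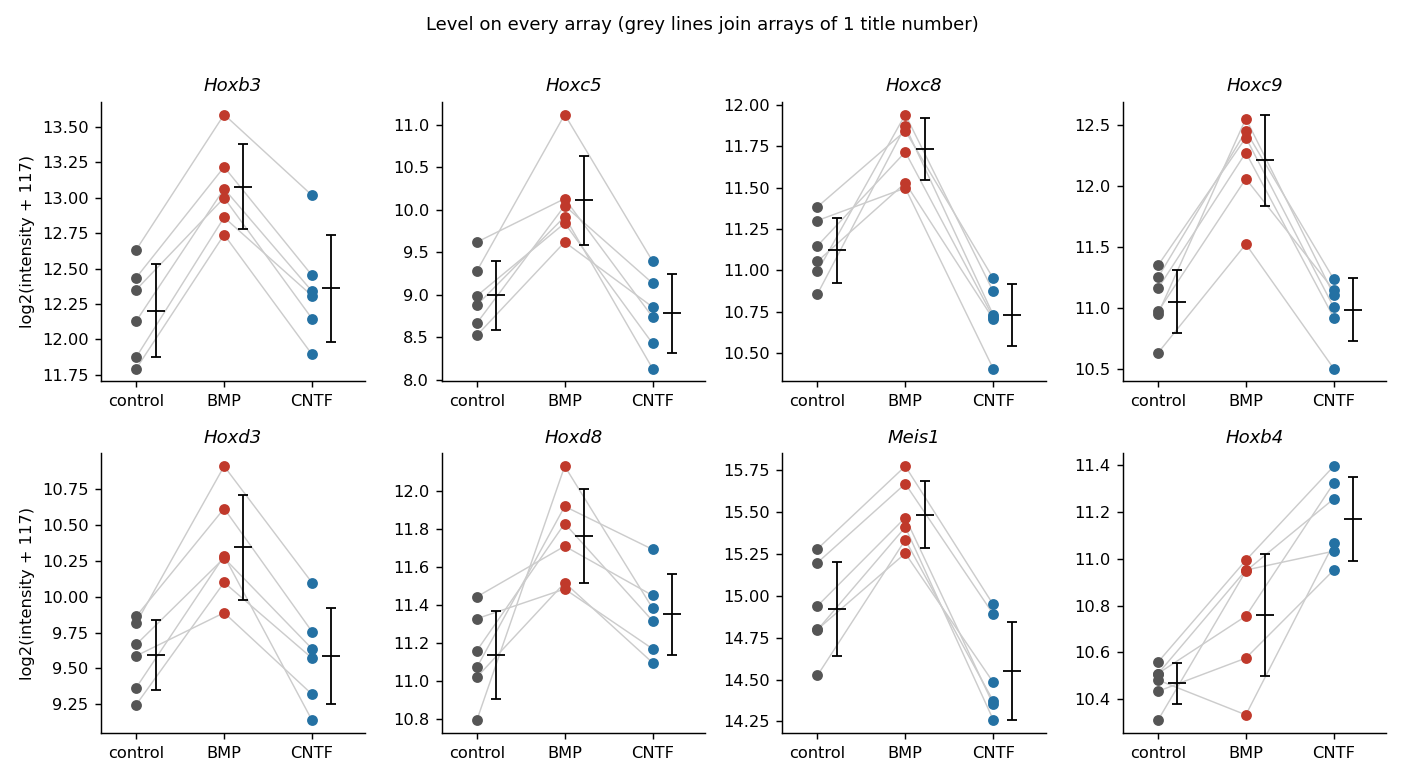
Level of each of 8 genes on each of the 18 arrays, log2(intensity + 117); bars are mean and SD of 6 arrays, and grey lines join arrays of the same title number. In Hoxb3, Hoxc5, Hoxc8, Hoxc9, Hoxd3 and Hoxd8 every BMP array lies above every control array, and in Hoxb4 every CNTF array does.

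Neither of the measured dorsal genes, Msx1 and Msx2, passed the test with BMP. Msx1, a roof plate and dorsal progenitor gene, read 7.59 to 8.87 in the controls (median 8.57) and 8.11 to 10.41 with BMP (median 9.08). BMP arrays 1, 2 and 3 stood at 9.74, 10.41 and 9.69, above all controls, and arrays 4, 5 and 6 at 8.47, 8.11 and 8.41, within the control range. The difference of 0.70 ± 0.39 had an adjusted p of 0.364 (0.205 with the block). Msx2, its close relative, had a difference of 0.30 ± 0.26 (adjusted p = 0.614) at the 11.7th percentile of the table, and its 2 further probe sets differed by -0.26 and 0.50. Dlx5, a gene known to respond to BMP in other tissues, differed by 0.51 ± 0.23 (adjusted p = 0.244), higher in 5 of 6 pairs.

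Pax6, which acts in progenitors of the intermediate and ventral cord and in dividing precursors, read 12.43 to 13.44 in the controls (median 12.79) and 13.04 to 13.88 with BMP (median 13.43). The groups overlapped, yet the BMP array was higher in 6 of 6 same-numbered pairs, by 0.43 to 0.87. The difference was 0.57 ± 0.22 (adjusted p = 0.134, with the block 0.000706). Irx1, Irx2, Irx3 and Irx5, which divide the progenitor zones, did not pass; Irx3 differed by 0.13 ± 0.27 and Irx1 by -0.35 ± 0.13 (adjusted p = 0.142).

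Among the genes of postmitotic neurons, Lhx9, a dorsal interneuron gene, read 7.38 to 8.31 in the controls (median 8.07) and 7.24 to 7.77 with BMP (median 7.36). It fell by 0.60 ± 0.17 (limma adjusted p = 0.0472, with the block 0.0367). It was at the 18.4th percentile of the table, the groups overlapped, and 13 of the 18 fits that each left out a single array lost the call (adjusted p of 0.0518 to 0.105). It was also lost with a floor in place of the added constant (0.101), in the fit of the 12 BMP and control arrays (0.0656), with robust empirical Bayes (0.057) and without title number 1, 2, 3, 5 or 6 (0.0817 to 0.161). Pax2, a gene of inhibitory interneurons, differed by 0.80 ± 0.34 (adjusted p = 0.206, with the block 0.0193) and was higher in 6 of 6 pairs. Lhx2, at the 16.2nd percentile, differed by 0.14 ± 0.22. Otx2 differed by 0.03 ± 0.27, and none of the 7 genes of the head group and 4 mesodermal and placodal genes passed.

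**Figure D4:**
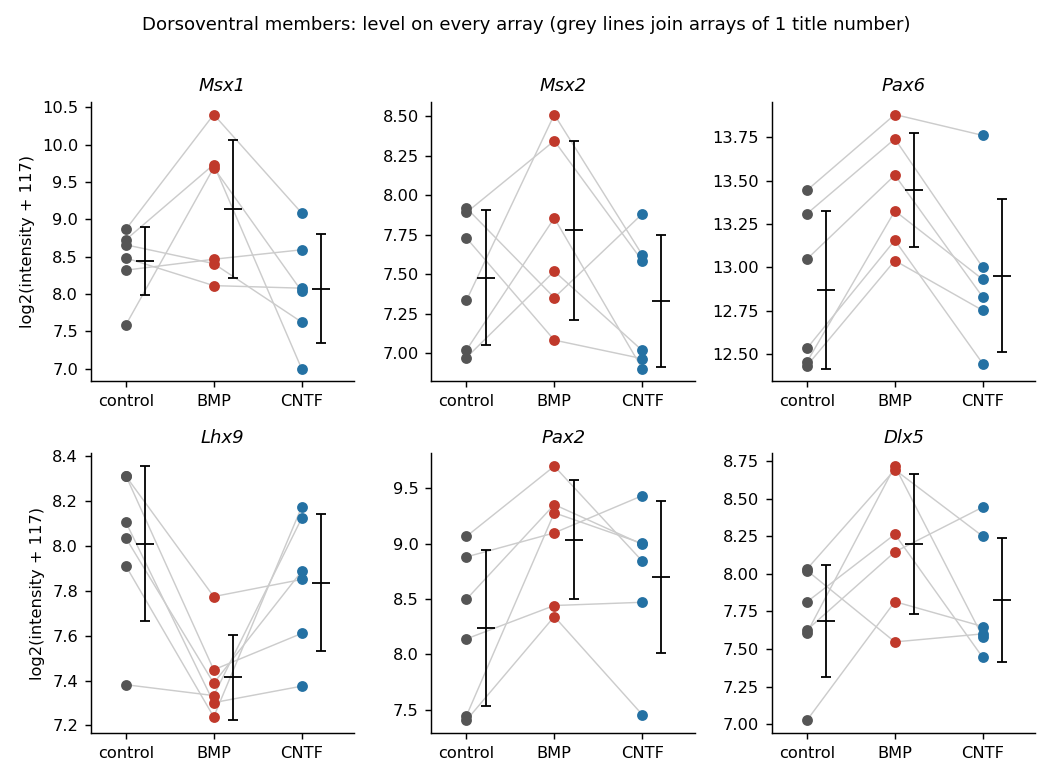
Level of 6 dorsoventral and neuronal genes on each of the 18 arrays, log2(intensity + 117); bars are mean and SD of 6 arrays, and grey lines join arrays of the same title number. Msx1 is high on 3 of 6 BMP arrays, at 9.69 to 10.41, while Pax6 and Pax2 are higher with BMP than in the control along every line.

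With CNTF, 1 of the 59 genes was called against control, Hoxb4, which rose. Over all probe sets 1.58% rose and 0.738% fell, and at or above the table median 2.12% rose. The count of 1 among the 59 is near that share. Hoxb4, an anterior paralog of hindbrain and neck, read 10.31 to 10.56 in the controls (median 10.50), 10.95 to 11.40 with CNTF (median 11.16) and 10.33 to 10.99 with BMP (median 10.85). Every CNTF array was above every control array, as in 1.27% of all probe sets, and the gain within same-numbered pairs was 0.52 to 0.95. The difference was 0.71 ± 0.12 (1.63-fold, limma adjusted p = 0.00224). The BMP arrays lay between, with a difference from control of 0.29 ± 0.12 (adjusted p = 0.18).

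No other Hox gene passed without the block. With CNTF 8 of the 22 Hox genes had a difference above 0, with a median of -0.06, against 48.5% of all probe sets. Hoxb2, the neighbour of Hoxb3, was higher in 6 of 6 same-numbered pairs, with a difference of 0.36 ± 0.15 (adjusted p = 0.33, with the block 0.0168). Hoxc8 was lower in 6 of 6 pairs, with a difference of -0.39 ± 0.12 (adjusted p = 0.102, with the block 0.0276). Meis1 was also lower in 6 of 6 pairs, with a difference of -0.37 ± 0.14 (adjusted p = 0.244, with the block 0.00139). With the block 2 genes thus rose and 2 fell with CNTF, against 4.19% and 3.38% of all probe sets, which is near those shares.

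The rest of the named genes did not pass in either fit. Hoxa5 differed by -0.19 ± 0.15, Hoxb6 by 0.03 ± 0.22, Hoxc9 by -0.07 ± 0.17 and Hoxd8 by 0.21 ± 0.13 with CNTF. Of the dorsoventral genes, Msx1 differed by -0.37 ± 0.39, Msx2 by -0.15 ± 0.26, Pax6 by 0.08 ± 0.22 and Irx3 by -0.02 ± 0.27. The smallest p-values among the genes outside the Hox clusters belonged to dim ones apart from Meis1 and Pbx2. Otx1, a forebrain gene, differed by 0.44, Lhx1, an interneuron gene, by 0.49, Isl1, a motor neuron gene, by -0.46 and Pbx2 by -0.21, with adjusted p of 0.249, 0.445, 0.451 and 0.54.

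The arrays with BMP and CNTF were also compared directly, at the same dose and labelled time. BMP arrays were higher in 9 of the 59 genes and lower in 1, against 3.24% and 2.99% of all probe sets (4.21% higher at or above the table median). The 9 were Hoxc4, Hoxc5, Hoxc8, Hoxc9, Hoxa5, Hoxa10, Hoxb3, Hoxd3 and Meis1, and the 1 was Hoxb4. With the block 16 genes were higher and 1 lower, against 8.17% and 6.93%. The added genes were Hoxa9, Hoxb6, Hoxd4, Hoxd8, Hoxd9, Pax6 and Pbx3.

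All 4 measured HoxC genes were called higher with BMP than with CNTF, with differences of 1.003 to 1.33, against 3.24% of all probe sets called higher. Hoxc8 read 11.50 to 11.94 with BMP (median 11.78) and 10.41 to 10.95 with CNTF (median 10.72). The groups did not overlap, as in 1.53% of all probe sets with BMP the higher. The difference of 1.003 ± 0.12 was 2.004-fold (limma adjusted p = 3.54e-05). Hoxc9 differed by 1.22 ± 0.17 (2.33-fold, adjusted p = 0.000182) and Hoxc5 by 1.33 ± 0.26 (2.52-fold, adjusted p = 0.00318), both without overlap.

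Hoxc4 differed by 1.05 ± 0.26 (2.07-fold, adjusted p = 0.0168), with groups that overlapped; its second probe set gave 0.71 and an adjusted p of 0.0779. Without the arrays of title number 2 the difference was 0.86 and the adjusted p 0.121. The same-numbered differences of that gene ranged from 0.72 to 2.02.

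Meis1 differed by 0.93 ± 0.14 (1.91-fold, limma adjusted p = 0.000432), with every BMP array above every CNTF array. Of the further Hox genes, Hoxa5 differed by 0.66 ± 0.15 (adjusted p = 0.00966), Hoxd3 by 0.76 ± 0.19 (0.0173) and Hoxb3 by 0.72 ± 0.18 (0.0194), each higher in 6 of 6 pairs. Hoxa10, a posterior paralog of lumbar cord, differed by 0.93 ± 0.25 (0.0303), and 7 of the 18 fits that left out a single array lost its call (adjusted p of 0.0547 to 0.0783), as did the fit of the 12 BMP and CNTF arrays (0.0701) and those without title number 1, 2, 3, 4 or 6 (0.052 to 0.155). Without CNTF array 6 the call on Hoxb3 was lost (adjusted p = 0.0556). Without the arrays of title number 2 or 3 the calls on Hoxa5, Hoxd3 and Hoxb3 were lost (adjusted p of 0.0535 to 0.0871). The call on Hoxd3 was also lost without number 4 (0.0634) and on its second probe set (0.21), and that on Hoxb3 without number 5 (0.0772).

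Hoxb4 was lower with BMP than with CNTF by 0.41 ± 0.12 (limma adjusted p = 0.0477), in 6 of 6 pairs. Groups overlapped, and 14 of the 18 fits that left out a single array lost the call (adjusted p of 0.0505 to 0.107). The call was also lost in the fit of the 12 BMP and CNTF arrays (0.107) and without each of the 6 title numbers (0.0721 to 0.178). Hoxd8 was 0.41 ± 0.13 higher with BMP than with CNTF (adjusted p = 0.0777, with the block 0.0316), and passed without BMP array 4 (0.0472) or CNTF array 3 (0.042). Hoxb3 and Hoxb4, neighbours in the cluster, had differences of opposite sign between the factors, 0.72 and -0.41. Msx1 was 1.07 ± 0.39 higher with BMP (adjusted p = 0.122, with the block 0.0517), in 5 of 6 pairs, Msx2 differed by 0.45 ± 0.26 and Pax6 by 0.49 ± 0.22 (adjusted p = 0.227, with the block 0.00215).

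Other patterning genes, taken from lists chosen with results of these data known, were read from the same fit. Of 19 regulators of axial identity, 1 rose and 1 fell with BMP, against 3.44% and 2.57% of all probe sets, which is near that share. With the block 1 rose and 2 fell, against 9.1% and 7.58%. Cyp26b1, which breaks down retinoic acid, a signal that drives anterior Hox genes, read 7.55 to 8.66 in the controls (median 8.45) and 9.82 to 11.21 with BMP (median 10.54). It rose by 2.36 ± 0.24 without overlap (limma adjusted p = 0.000102), and was also 2.22 ± 0.24 higher than with CNTF. It was the 1 gene of the 19 called between the factors, where 3.24% of all probe sets were higher with BMP. The block called 3 higher, against 8.17%. Rara, a retinoic acid receptor, fell by 0.46 ± 0.12 (adjusted p = 0.0261). With CNTF against control none of the 19 passed.

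Of 15 further dorsal genes, 2 rose with BMP and none fell, against 3.44% and 2.57% of all probe sets. Zic4, a dorsal progenitor gene, read 8.45 to 9.30 in the controls (median 9.05) and 9.40 to 10.85 with BMP (median 9.85), without overlap, and rose by 1.002 ± 0.25 (limma adjusted p = 0.0186). Zic2, its relative, at the 31.3rd percentile of the table, rose by 1.34 ± 0.35 (adjusted p = 0.0282). Its groups overlapped, at 7.21 to 9.05 in the controls and 8.40 to 10.07 with BMP. Bmp6 did not pass without the block, though it read 7.06 to 8.48 in the controls and 8.49 to 11.74 with BMP. With the block 4 rose and 1, Bmp4, fell, against 9.1% and 7.58%. With CNTF none passed, or 2 lower with the block, against 3.38% of all probe sets.

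Of 14 ventral genes, 3 fell and 1 rose with BMP, against 2.57% and 3.44% of all probe sets. With the block 4 fell and 1 rose, against 7.58% and 9.1%. Nkx2-2, a ventral progenitor gene that is also used in oligodendrocyte precursors, read 13.96 to 15.09 in the controls (median 14.52) and 11.12 to 14.50 with BMP (median 12.53). It fell by 1.88 ± 0.37 (limma adjusted p = 0.00489). Olig2, of motor neuron progenitors and the oligodendrocyte lineage, fell by 2.16 ± 0.44 (adjusted p = 0.00536) and Olig1 by 1.26 ± 0.30 (adjusted p = 0.017). Foxa2, a floor plate gene at the 31.6th percentile of the table, rose by 0.96 ± 0.21. Of 6 brain region markers none passed with BMP against control, or 2 lower with the block, while En2, a midbrain and hindbrain boundary gene, was 0.90 ± 0.23 lower with BMP than with CNTF. With CNTF against control none of the ventral and brain genes passed. Between the factors, 1 dorsal gene, Zic2, was higher with BMP by 1.28, and with the block 3 were higher and 1 lower. Of the ventral genes Gata3, an interneuron gene, was higher by 0.95, while Nkx2-2, Nkx6-2 and Olig2 differed by -1.90, -1.79 and -1.62. The shares of all probe sets between the factors were 3.24% higher and 2.99% lower, or 8.17% and 6.93% with the block.

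**Figure D5:**
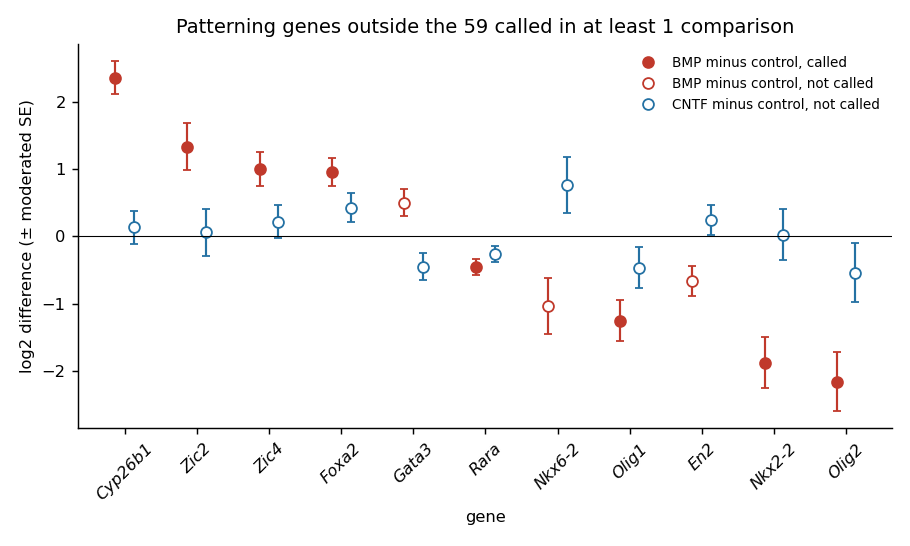
Difference from control on the log2 scale, with moderated SE, for the 11 patterning genes outside the 59 that were called in at least 1 of the 3 comparisons; filled points passed against control. Cyp26b1 has the highest BMP value (2.36) and Olig2 the lowest (-2.16), and no CNTF point is filled.

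Markers of cell types moved with BMP beside the Hox genes, and their part in those differences was not tested. For comparison, 3.44% of all probe sets rose and 2.57% fell with BMP, or 9.1% and 7.58% with the block. With CNTF these shares were 1.58% and 0.738%, or 4.19% and 3.38% with the block. All 5 measured markers of oligodendrocyte precursors, Olig1 and Olig2 among them, fell: their summed level, as log2, was 16.26 to 16.78 in the controls, 13.31 to 16.13 with BMP and 15.85 to 16.43 with CNTF. Of 5 oligodendrocyte markers 2 fell (3 with the block). Of 8 neuronal markers 2 rose (6 with the block), Nefl by 0.95 and Stmn2 by 1.17, and the summed level was 15.82 to 16.02 in the controls, 15.87 to 16.58 with BMP and 15.70 to 16.18 with CNTF. Of 9 markers of fibroblasts and meninges, 6 of them below the table median, 1 rose (3 with the block), Col1a2, by 2.61. Their sums were 11.43 to 13.35 in the controls, 12.70 to 14.99 with BMP and 10.86 to 13.54 with CNTF. Of 7 astrocyte markers 1 rose with BMP, Aqp4, by 2.33, and 1 with CNTF, Gfap, by 3.96. At an unadjusted limma p under 0.05, 2 were higher with BMP and 3 with CNTF. None of the 7 was called between the factors, where their differences ran from -1.63 to 0.44. These calls thus do not mark Aqp4 or Gfap as particular to 1 factor. Aldh1l1 differed by -0.96 with BMP and -1.40 with CNTF (adjusted p = 0.232 and 0.118, with the block 0.0937 and 0.0301). With the block 2 rose with BMP, and 2 rose and 1 fell with CNTF. The summed astrocyte level was 16.51 to 17.36 in the controls, 16.91 to 17.77 with BMP and 17.21 to 18.01 with CNTF. All markers of endothelial cells, microglia and skeletal muscle were below the table median, with Tek and Acta1 called higher with BMP. The 5 markers of Schwann cells and neural crest were below it too, and Pmp2 rose with CNTF by 1.29. With BMP none of the 5 was called without the block, with differences of -0.25 to 1.30. Of these, 2 were higher with BMP at an unadjusted limma p under 0.05. None was called between the factors. With CNTF the block also called 3 neuronal markers higher and 1 lower, 1 oligodendrocyte and 1 fibroblast marker higher and 1 precursor marker lower, and with BMP 1 marker of Schwann cells and neural crest higher.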

How the data were processed

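Gene expression was measured on 18 Affymetrix arrays, 6 a group. The deposited values are intensities on a linear scale, scaled by the authors to a common trimmed mean of 2501 after trimming 2% at each end, as the values show; the summary method is not given in the sources used here, and detection calls were not used. Here each intensity had 117 added, the 20th percentile of the table, before log2. Gene names came from the platform annotation; 20826 of 31042 probe sets carry 1 symbol, 436 several and 9780 none, and 57 control probe sets were left out. limma 3.58.1 in R 4.3.3 fitted group means over all 18 arrays (lmFit, eBayes with trend, two-sided, Benjamini-Hochberg over 31042 probe sets, called at an adjusted p under 0.05). The script was tested on simulated data. The number of arrays limits the precision.

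Same-number deviations correlated above 0.1 in all 18 pairs (lowest 0.121), so the fit with the title number as a block is given where it changes the call of a named gene or moves a count. Genes and lists were chosen with earlier results of these data known. Named genes are, per comparison, all called members, or the 8 with the smallest p where fewer were called, plus Msx1, Msx2, Pax6, Irx3, Lhx2, Otx2, Meis1 and the brightest gene of each Hox cluster; others were named after their values were seen. Alternatives covered the constant, the normalization, filters, the arrays in the fit, empirical Bayes settings, array weights, the probe set used and arrays left out.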

Additional observations from a re-analysis of the deposited data

Results flagged for a closer look

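Of 72 groups of 6 arrays of the named genes, 4 held an array whose gap to its nearest neighbour was large against the range of the group, and chance gives such an array in about 1 in 20 groups. Hoxc5 with BMP had array 1 at 11.12, the next at 10.13. Hoxb2 with BMP had array 5 at 12.16, the next at 12.92. Irx3 with CNTF had array 1 at 12.39, the next at 11.43. Lhx2 in the controls had array 3 at 6.945, the next at 7.633; that gene was dim.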

How the results depend on the processing

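Counts of called genes kept their direction and stayed within 1.5 times under another constant, a floor, quantile or 75th-percentile scaling, filters on dim probe sets, the fit of 12 arrays, other empirical Bayes settings, array weights and other probe sets. With the replicate block the counts were 18 for BMP against control, 4 for CNTF against control and 17 for BMP against CNTF. For BMP against control the count was 4 without title number 2, 5 without number 3 and 5 without number 5, and for BMP against CNTF 4 without number 2 and 5 without number 3; in those fits all called genes were among those called with all arrays, and the fits hold fewer arrays. Leaving out a single array gave 6 to 9 for BMP against control, 1 in every case for CNTF against control and 8 to 10 for BMP against CNTF. Depth in the sense of signal limits the 16 genes below the 20th percentile.

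The signs that turned belonged to differences that had not passed in that comparison, and the cause was not tested. For BMP against control they were Msx2 with its second probe set (-0.26), Irx3 without number 4 (-0.031; single arrays left out -0.033 to 0.25) and Otx2 without number 4 (-0.095), without number 6 (-0.13) and with its second probe set (-0.10), with -0.15 to 0.20 over single arrays. For CNTF against control they were Pax6 with array weights (-0.0021; -0.079 to 0.20), Irx3 without numbers 2, 3 and 6 (0.068, 0.11 and 0.012; -0.22 to 0.093), Lhx2 without number 4 (-0.019; -0.11 to 0.16), Otx2 without numbers 1 and 4 (0.19 and 0.013; -0.14 to 0.13), Hoxb6 with array weights (-0.038) and without numbers 1, 4 and 5 (-0.027, -0.0067 and -0.011; -0.11 to 0.18) and Hoxc9 (-0.15 to 0.032). For BMP against CNTF they were Msx2 with its second probe set (-0.15), Irx3 (-0.010 to 0.36), Lhx2 (-0.016 to 0.27) and Otx2 without numbers 4 and 6 (-0.11 and -0.12; -0.11 to 0.17).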
